A study of Mus musculus with 12 samples.

Results

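Imprinted genes are transcribed mainly from the copy of a single parent. The 10 followed here were Gnas, Peg3, Meg3, Plagl1, Grb10, Mest, Snrpn, Peg10, Igf2r, and Nnat, read from peaks of 5-methylcytosine (5mC) and 5-hydroxymethylcytosine (5hmC) in the embryonic mouse cortex. A peak was counted as theirs when the deposited annotation gave that gene as the nearest to the peak. This took 20 of 55085 5mC peaks and 18 of 47478 5hmC peaks, and each of the 10 genes had at least 1. Of these genes, 5 had peaks of both marks (Grb10, Meg3, Peg10, Peg3, and Plagl1), 2 had a 5mC peak only (Gnas and Mest), and 3 had a 5hmC peak only (Igf2r, Nnat, and Snrpn). Peaks were taken by gene symbol and not by the level of either mark, but the genes were chosen with earlier results of these data known.

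Cells came from the cortex of E14.5 mouse embryos carrying both a Btg2-RFP and a Tubb3-GFP reporter, an allele pair that all 3 sorted populations share. Proliferative progenitors (PP, labelled Btg2-/Tubb3-) had neither colour, differentiative progenitors (DP) were RFP+ and GFP-, and neurons were GFP+ whether or not they had RFP. PP were thus defined by the absence of reporters, which any reporter-negative cell of the tissue shares. Barcoded DNA of the cell types was pooled before the immunoprecipitation, MeDIP for 5mC and hMeDIP for 5hmC, and an untreated input accompanied each of the 6 immunoprecipitated samples, 12 samples in all. The tables give a single level per peak and cell type, the authors' mean on a log2 scale of normalized reads, with no level per replicate, no input level, and no read count. Depth is unknown from these tables, no error can be set on a level, and no difference below was tested. Expression values deposited beside the peaks, from cells sorted in an earlier study, followed the population labels. Btg2 and Eomes were highest in DP, Tubb3, Dcx, and Neurod6 in neurons, and Pax6, Sox2, and Hes5 in PP.

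Imprinting rests on control regions whose cytosines are methylated on the copy inherited from either the mother or the father, set in the germ line and kept through later cell divisions. Most control regions carry the maternal mark and lie at promoters, as known for Peg3, Plagl1, Mest, Peg10, Snrpn, and Nnat, whereas the region upstream of Meg3 carries the paternal mark. TET enzymes oxidize 5mC to 5hmC, which is abundant in neurons. MeDIP reads both parental copies together, so a level here is that of the locus and not that of an allele.

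The only peak of these genes that reached a RefSeq promoter window (from 250 bases before to 50 after a start site, 300 bases in all) was a 5mC peak of Grb10, an adaptor protein of insulin and growth factor receptors. In mouse, Grb10 is known to be transcribed from the maternal copy in most tissues and from the paternal copy, with other start sites, in neurons. The peak lay at chr11:12028038-12028154 (mm10), inside the gene, and its centre was 125 bp upstream of a RefSeq start site at position 12027971 on the minus strand. The window at this start site is shown because a peak covers it, and the window at the other RefSeq start site of Grb10, which no Grb10 peak touched, is shown beside it for its CpG content. Both are RefSeq sequence of GRCm38.p6, the assembly called mm10, on the minus strand. In the first line capitals mark the bases under the peak, and in the second they mark CpG sites.
Grb10 window with the 5mC peak, chr11:12027922-12028221: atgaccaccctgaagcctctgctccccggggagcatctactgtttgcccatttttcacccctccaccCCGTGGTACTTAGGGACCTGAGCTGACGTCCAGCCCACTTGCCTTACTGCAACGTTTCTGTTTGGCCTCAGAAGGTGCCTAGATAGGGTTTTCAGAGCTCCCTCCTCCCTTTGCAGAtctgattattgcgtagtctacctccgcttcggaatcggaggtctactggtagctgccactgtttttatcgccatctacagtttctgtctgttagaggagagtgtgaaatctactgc
Grb10 window without a peak, chr11:12037371-12037670: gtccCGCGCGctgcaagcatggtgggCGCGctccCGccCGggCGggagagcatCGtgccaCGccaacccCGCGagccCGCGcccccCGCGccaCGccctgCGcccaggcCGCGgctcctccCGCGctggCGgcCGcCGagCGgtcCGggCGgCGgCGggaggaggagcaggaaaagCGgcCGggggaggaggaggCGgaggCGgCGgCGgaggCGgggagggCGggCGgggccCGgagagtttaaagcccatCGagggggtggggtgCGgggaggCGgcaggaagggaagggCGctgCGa
The covered window held 9 CpG sites, more than 54.2% of 32851 RefSeq promoter windows of the mouse. The part under the peak, bases 68 to 184 of the window, held 3 of them within 117 bases at a GC content of 54.7%. The other window held 45 CpG sites, more than 98.1% of all windows. The authors removed peaks overlapping repeats, so a window without a peak is not a reading of its methylation. Across the 10 genes, 9 had RefSeq windows, 19 in number, and Peg10 had no entry.

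The 5mC peaks of the imprinted genes lay across nearly the whole range of levels. Ranked by the mean of the 3 cell types, their median stood above 57.2% of all 5mC peaks, with the lowest above 6.02% and the highest above 97.3%. Of the 20 peaks, 12 were above the median of all peaks and 4 were in the top 10%. Median log2 levels in PP, DP, and neurons were 5.24, 5.24, and 4.99, against 5.06, 5.05, and 4.87 over all 5mC peaks. By position, 6 of 20 peaks (30%) were within 5 kb of the annotated start site, compared with 16.0% of all 5mC peaks.

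The 5hmC peaks ranked lower, with a median above 47.2% of all 5hmC peaks and 7 of 18 above the median of the mark. The lowest stood above 0.809% and the highest above 99.4%, and 2 were in the top 10%. Median log2 levels were 4.61 in PP, 4.62 in DP, and 4.80 in neurons, against 4.72, 4.71, and 4.75 over all 5hmC peaks. They had a median width of 153 bp, against 164 bp for the mark. Per base of width their median rank was above 56.3% of the mark, and that of the 5mC peaks above 57.6%.

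**Figure D1:**
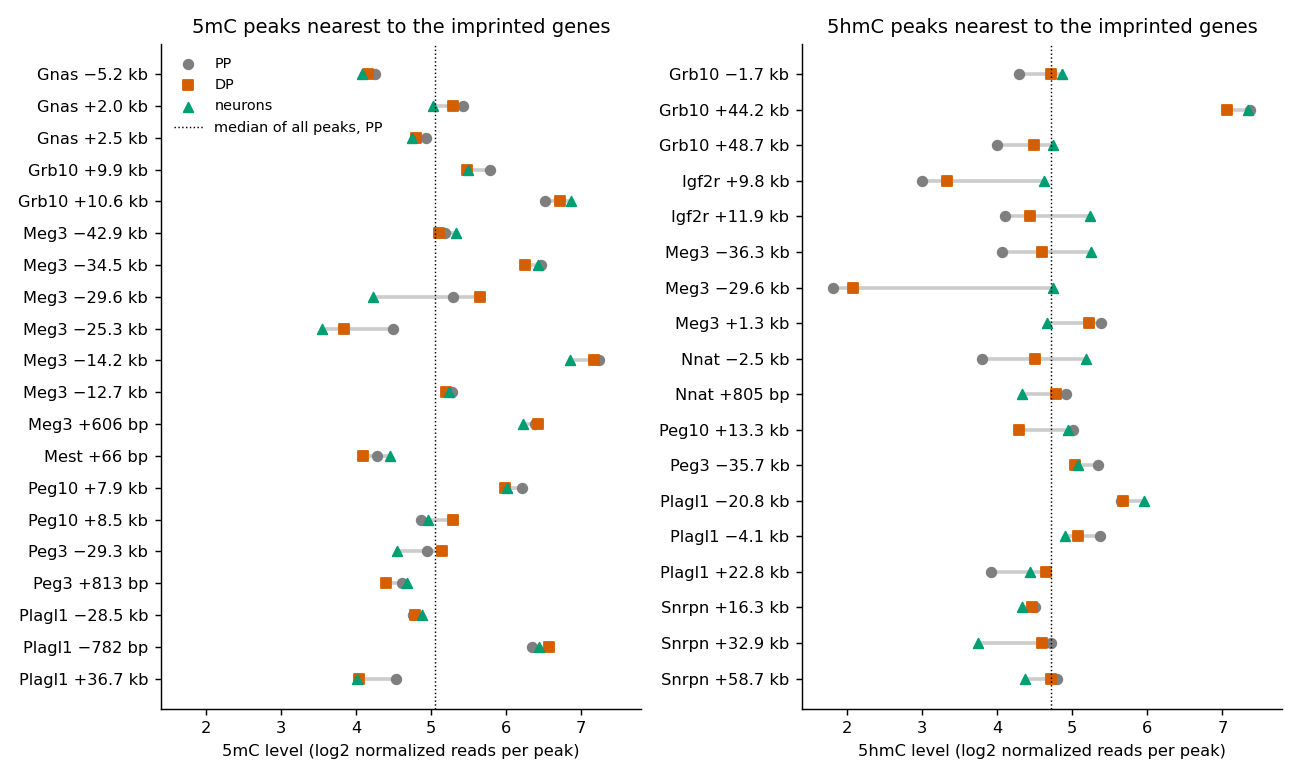
Log2 levels of the 20 5mC peaks (left) and 18 5hmC peaks (right) of the imprinted genes in PP (grey circles), DP (orange squares), and neurons (green triangles), each named by gene and distance to the annotated start site (negative upstream), with the median of all peaks in PP as a dotted line. Points are the authors' means without error. Most 5mC symbols of a peak sit close together, whereas several 5hmC peaks, led by Meg3 29.6 kb upstream, have neurons far to the right of PP.

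Differences between cell types are given on the log2 scale after subtracting the median difference of all peaks of the mark. For 5mC that median was -0.0040 for PP to DP, -0.18 for DP to neurons, and -0.17 from PP to neurons. For 5hmC it was -0.0035, -0.023, and -0.081 in the same order. A peak was called higher or lower when the remaining difference reached 1.5-fold, which is 0.58 on the log2 scale.

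Meg3, a long non-coding RNA transcribed from the maternal copy, had 7 5mC peaks, the most of the 10 genes, and the only ones of the 20 to reach 1.5-fold in any comparison. Its highest peak, 14190 bp upstream of the start site at chr12:109526754-109526870, had a PP level of 7.23, a DP level of 7.17, and a neuron level of 6.85. It stood above 97.3% of all 5mC peaks. This was the highest 5mC level of the 10 genes, with a difference from PP to neurons of -0.21. The peak just inside the gene, 606 bp from the start at chr12:109541527-109541688, had 6.38, 6.42, and 6.23. Its spread over the cell types, the highest minus the lowest level after centring, was 0.04, the smallest of the 20. Since low levels varied more, all peaks of a mark were split by mean level into 10 equal bins, and this spread exceeded that of 1.82% of peaks of the same level bin.

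Further upstream of Meg3, 2 peaks differed between cell types. At chr12:109511369-109511490, 29572 bp upstream, levels were 5.30 in PP, 5.65 in DP, and 4.23 in neurons. Neurons were the lowest here, by -1.25 against DP and by -0.90 against PP, a level 0.536 times that of PP. The spread of 1.26 exceeded that of 99.0% of 5mC peaks of the same level bin. At chr12:109515620-109515765, 25310 bp upstream, the lowest 5mC peak of the 10 genes had 4.49 in PP, 3.83 in DP, and 3.54 in neurons. Its difference was -0.65 from PP to DP and -0.77 from PP to neurons, but 48.6% of peaks at such low levels had a smaller spread, so a spread of this size was common there. The other 3 Meg3 peaks, 42940, 34545, and 12727 bp upstream, stood above 60.2%, 90.6%, and 61.2% of 5mC peaks, and their differences from PP to neurons were 0.32, 0.14, and 0.13.

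Plagl1 and Peg3 encode zinc finger proteins transcribed from the paternal copy. Plagl1 had its highest 5mC peak 782 bp upstream of the start site at chr10:13089847-13089974, with 6.34 in PP, 6.57 in DP, and 6.43 in neurons, above 91.6% of all 5mC peaks. Of the 10 upstream 5mC peaks it was the nearest to the annotated start site, and its spread was 0.26. The peak 28466 bp upstream (chr10:13062146-13062305) had 4.76, 4.79, and 4.88. Within the gene, 36676 bp from the start (chr10:13127275-13127462), levels were 4.53, 4.04, and 4.01, above 13% of 5mC peaks.

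Peg3 had 2 5mC peaks of middling level. Inside the gene, 813 bp from the start at chr7:6729551-6729664, levels were 4.62 in PP, 4.39 in DP, and 4.68 in neurons, above 30.3% of all 5mC peaks. Upstream by 29325 bp, at chr7:6759682-6759810, they were 4.95, 5.15, and 4.55, above 46.2%. Both spreads, 0.45 and 0.44, were under 1.5-fold.

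Peg10, a gene derived from a retrotransposon, and Mest, a hydrolase-fold protein, are paternally expressed. Peg10 had 2 5mC peaks in the gene, 7929 and 8499 bp from the start. The former, at chr6:4755152-4755320, had 6.21 in PP, 5.98 in DP, and 6.01 in neurons. It stood above 85.2% of 5mC peaks. The latter, at chr6:4755740-4755873, had 4.86, 5.29, and 4.96, with DP highest. The single Mest peak, chr6:30723538-30723690, overlapped the start site annotated by the authors, and the centre of the peak lay 9892 bp upstream of the RefSeq start of Mest. It had 4.29 in PP, 4.10 in DP, and 4.45 in neurons, above 16.5% of 5mC peaks.

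Gnas encodes the alpha subunit of the stimulatory G protein and is imprinted by isoform. Its 3 5mC peaks had low to middle levels, all highest in PP on the deposited scale. At chr2:174286227-174286470, 2027 bp into the gene, levels were 5.43, 5.29, and 5.03 in PP, DP, and neurons, above 61.6% of 5mC peaks. At chr2:174286771-174286905, 2517 bp in, they were 4.94, 4.79, and 4.75, and at chr2:174279076-174279201, 5183 bp upstream, 4.26, 4.16, and 4.09. After centring, the differences from PP to neurons were -0.23, -0.02, and 8.2e-05, so the last matched the shift of all peaks.

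Grb10 had 6.52 in PP, 6.71 in DP, and 6.87 in neurons at the promoter peak whose sequence is given above, which stood above 94.5% of all 5mC peaks. Its difference from PP to neurons was 0.52, under 1.5-fold, yet its spread exceeded that of 96.0% of 5mC peaks of the same level bin. The second Grb10 peak, chr11:12028719-12028853, had 5.78, 5.48, and 5.49, above 73.2%.

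Counting over the 20 5mC peaks, from PP to DP none was called higher and 1 lower (5.00%), against 4.60% higher and 5.44% lower of all 5mC peaks. From DP to neurons none was higher and 1 lower, against 5.12% and 9.36%. From PP to neurons none was higher and 2 were lower (10%), against 5.00% and 10.2%. The shares of lower peaks were thus close to those of all peaks, and at the background shares 20 peaks would hold about 1 that was higher. Taken by position, within 5 kb of the RefSeq genes, 33 5mC peaks held 2 that were higher and 2 lower in DP than in PP. Against DP, 2 were higher and 1 lower in neurons, and against PP 1 was higher and none lower. The DP level enters both the first and the second of these comparisons, which are therefore not independent.

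The 5mC of the imprinted genes varied over cell types about as much as that of other peaks of like level. The median spread was 0.32, compared with 0.38 for all 5mC peaks, and 18 of 20 peaks (90%) kept within 1.5-fold, compared with 74.3%. Among peaks of the same level bin, the median percentile of their spread was 48.0, and 11 of 20 were below the middle of their bin.

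The 5hmC peaks given to the imprinted genes included larger differences between cell types than their 5mC peaks, mostly at low or middle levels. Igf2r, the maternally expressed receptor for Igf2 and mannose 6-phosphate, had 2 5hmC peaks in the gene and neurons were highest at both. At chr17:12757670-12757786, 11936 bp from the start, levels were 4.11 in PP, 4.44 in DP, and 5.24 in neurons, a difference from PP to neurons of 1.21. At chr17:12759767-12759882, 9840 bp from the start, they were 3.0, 3.33, and 4.62, a difference of 1.70. The latter stood above 4.35% of 5hmC peaks, and 48.2% of peaks of its level bin had a smaller spread.

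Meg3 had 3 5hmC peaks, of which the upstream 2 were highest in neurons and the one in the gene was lowest there. At chr12:109504597-109504749, 36329 bp upstream, levels were 4.06 in PP, 4.60 in DP, and 5.25 in neurons, a difference from PP to neurons of 1.27. At chr12:109511343-109511470, 29596 bp upstream, they were 1.81, 2.08, and 4.74. That peak had the largest difference of the 38, at 2.69 from DP to neurons and 3.02 from PP to neurons, or 8.09-fold. In linear terms the means were 3.50, 4.22, and 26.7 normalized reads, so the fold rests on few reads in PP and DP. A region was kept if it was a peak in all replicates of a single cell type. With so few reads in PP and DP, this one is likely to have entered through neurons, which favours a higher neuron level. The same limit applies to the lower Igf2r peak, and how far it set either fold was not tested. The Meg3 peak stood above 0.809% of 5hmC peaks, and its spread exceeded that of 81.9% of peaks of the same level bin. The peak 1294 bp into the gene, chr12:109542202-109542389, had 5.38, 5.22, and 4.67, a difference from PP to neurons of -0.63.

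Nnat encodes a small membrane protein of the endoplasmic reticulum and is paternally expressed. The peak 2524 bp upstream, chr2:157557487-157557623, had 3.80 in PP, 4.50 in DP, and 5.18 in neurons, with DP 0.70 above PP and neurons 0.71 above DP. It was the only one of the 18 that was called higher in both transitions. The peak 805 bp from the start, chr2:157560801-157560966, had 4.92, 4.79, and 4.34, with a difference from PP to neurons of -0.51.

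Grb10 had the highest 5hmC level of the 10 genes, at chr11:11994339-11994579 in the gene, with 7.37 in PP, 7.05 in DP, and 7.34 in neurons, above 99.4% of all 5hmC peaks. It was nearly level between PP and neurons, with a difference of 0.05. At chr11:11989904-11990031, also in the gene, levels were 4.00, 4.49, and 4.74, and at chr11:12040321-12040494, 1725 bp upstream, 4.29, 4.71, and 4.87. These were 0.82 and 0.66 higher in neurons than in PP.

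Plagl1 had 3 5hmC peaks. The highest, 20830 bp upstream at chr10:13069756-13069969, had 5.64 in PP, 5.68 in DP, and 5.95 in neurons, above 90.6% of 5hmC peaks. The peak 4122 bp upstream (chr10:13086479-13086661) had 5.37, 5.08, and 4.90. Within the gene, 22829 bp from the start (chr10:13113449-13113593), levels were 3.92, 4.65, and 4.44, a difference of 0.73 from PP to DP and 0.60 from PP to neurons.

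Snrpn encodes a subunit of small nuclear ribonucleoproteins and is paternally expressed. Its 3 5hmC peaks were all inside the gene and all lowest in neurons. At chr7:60107290-60107444, 32852 bp from the start, levels were 4.71 in PP, 4.59 in DP, and 3.75 in neurons, a difference of -0.82 from DP and -0.88 from PP. At chr7:60081445-60081602 they were 4.80, 4.72, and 4.37, and at chr7:60123891-60124046 4.51, 4.46, and 4.33, with differences from PP to neurons of -0.35 and -0.10.

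Peg10 and Peg3 had 1 5hmC peak each. At Peg10, downstream of the gene at chr6:4760572-4760694, levels were 5.01 in PP, 4.28 in DP, and 4.94 in neurons. DP was the lowest, by -0.73 against PP, and neurons were 0.68 above DP. At Peg3, 35667 bp upstream at chr7:6766036-6766139, levels were 5.35, 5.04, and 5.07, above 74.6% of 5hmC peaks.

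Over the 18 5hmC peaks, from PP to DP 2 were called higher (11.1%) and 1 lower, against 11.2% higher and 4.68% lower of all 5hmC peaks. From DP to neurons 6 were higher (33.3%) and 1 lower (5.56%), against 16.5% and 7.07%. From PP to neurons 8 were higher (44.4%) and 2 lower (11.1%), against 22.1% and 7.71%. The 8 peaks belonged to 5 genes, Grb10, Igf2r, Meg3, Nnat, and Plagl1, and the 2 lower peaks to Meg3 and Snrpn. Without subtracting the median difference of all peaks, 6 were higher and 3 lower. With only the highest peak of each gene, 1 of 8 was higher and 1 lower. Among the 7 peaks above the median level none was higher and 1 lower, so the higher calls came from peaks of low or middle level. Peaks low in PP and DP may have entered through neurons, as said for Meg3 and Igf2r. That favours a higher call, and how far it set these counts was not tested. The 22.1% covers peaks of every level. No share of all peaks was taken for these subsets, so their counts have no like background. Taken by position, within 5 kb of the RefSeq genes, 33 5hmC peaks held 8 that were higher (24.2%) and 4 lower (12.1%) from PP to neurons and 6 higher (18.2%) and 3 lower (9.09%) from DP to neurons, so the shares higher were near those of all peaks.

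**Figure D2:**
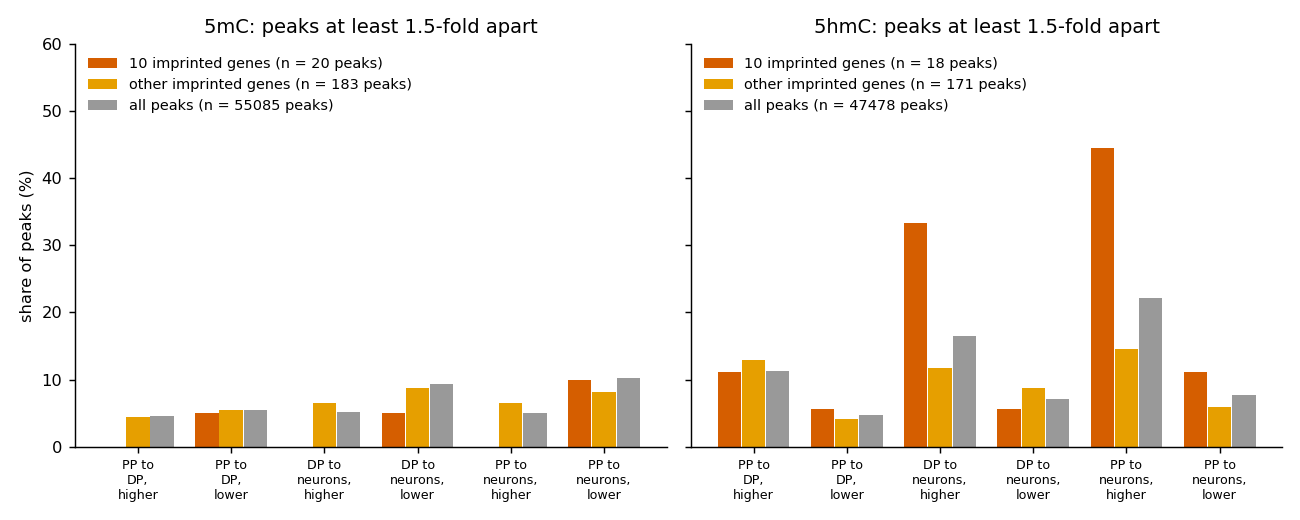
Share of peaks (%) at least 1.5-fold higher or lower between PP, DP, and neurons, after subtracting the median difference of all peaks, for the 10 imprinted genes, other imprinted genes, and all peaks, for 5mC (left) and 5hmC (right). Bars have no error because the tables hold no replicates. The 5hmC share higher from PP to neurons is 44.4% for the 10 genes, 14.6% for the other imprinted genes, and 22.1% for all peaks.

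The median spread of 5hmC over cell types was 0.70, compared with 0.47 for all 5hmC peaks, and 7 of 18 peaks (38.9%) kept within 1.5-fold, compared with 61.9%. Among peaks of the same level bin, the median percentile of their spread was 72.7. The median spread was 0.45 with 1 peak per gene, 0.39 for the 7 peaks above the median level, and 0.51 for the 33 peaks by position. The 0.47 covers peaks of every level, and low levels varied more, so 0.45 and 0.39 are not like for like with it. Within their level bins, spreads of the 7 peaks above the median level exceeded those of 66.1%, 79.4%, 60.6%, 80.8%, 37.2%, 71.1%, and 51.6% of peaks. The smallest spread was 0.10, at Snrpn, and 4 of 18 were below the middle of their bin. Peaks of a gene could differ in opposite directions. At Meg3 the 2 upstream peaks were called higher and the peak in the gene lower in neurons than in PP, and at Grb10 the highest peak differed by 0.05 while the other 2 were higher.

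**Figure D3:**
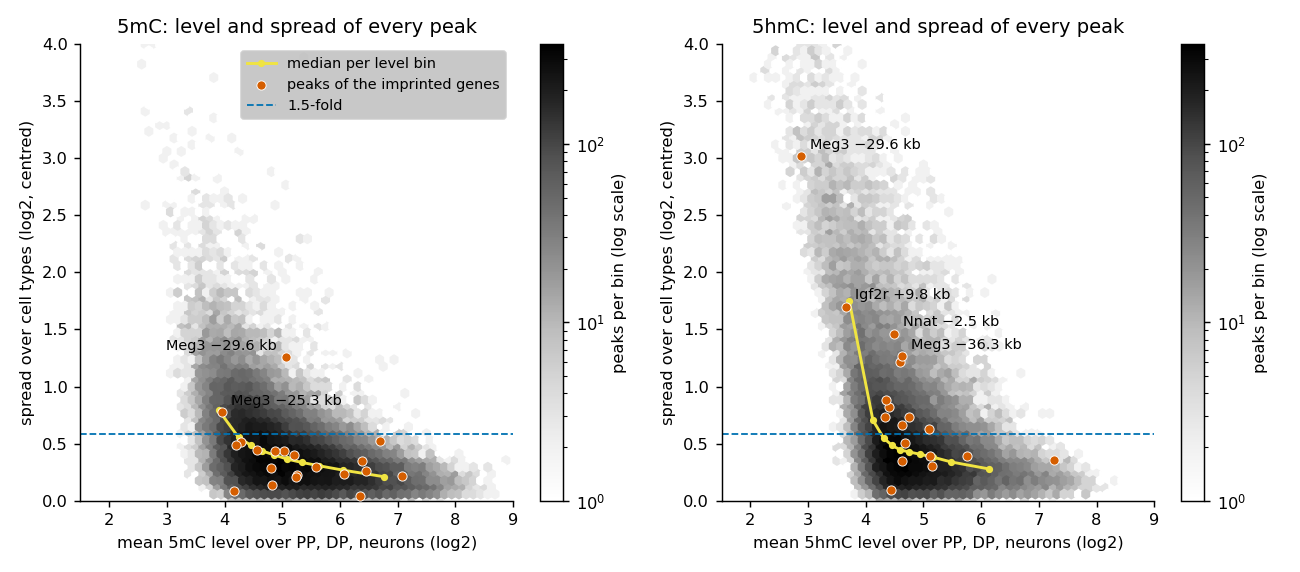
Spread over cell types (highest minus lowest centred log2 level) against mean log2 level for every 5mC (left) and 5hmC (right) peak, as grey bins on a log scale of peak number, with the median per level bin as a yellow line and the peaks of the imprinted genes in orange. The dashed line marks 1.5-fold, and peaks with a spread over 4 lie outside the plot. At 5mC 18 of 20 orange points lie under the line, at 5hmC 7 of 18.

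Among the peaks given to the 10 genes, both marks met at a single place. The 5mC and 5hmC peaks of Meg3 about 29.6 kb upstream overlapped by 102 bp, chr12:109511369-109511470, which is 83.6% of the shorter peak. There 5mC was 5.30, 5.65, and 4.23 in PP, DP, and neurons, and 5hmC was 1.81, 2.08, and 4.74. Neurons thus had the lowest 5mC and the highest 5hmC of the cell types at this locus. It is 1 of 20 5mC peaks (5.00%), compared with 12.2% of all 5mC peaks overlapping a 5hmC peak, and 1 of 18 5hmC peaks (5.56%), compared with 14.2%.

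**Figure D4:**
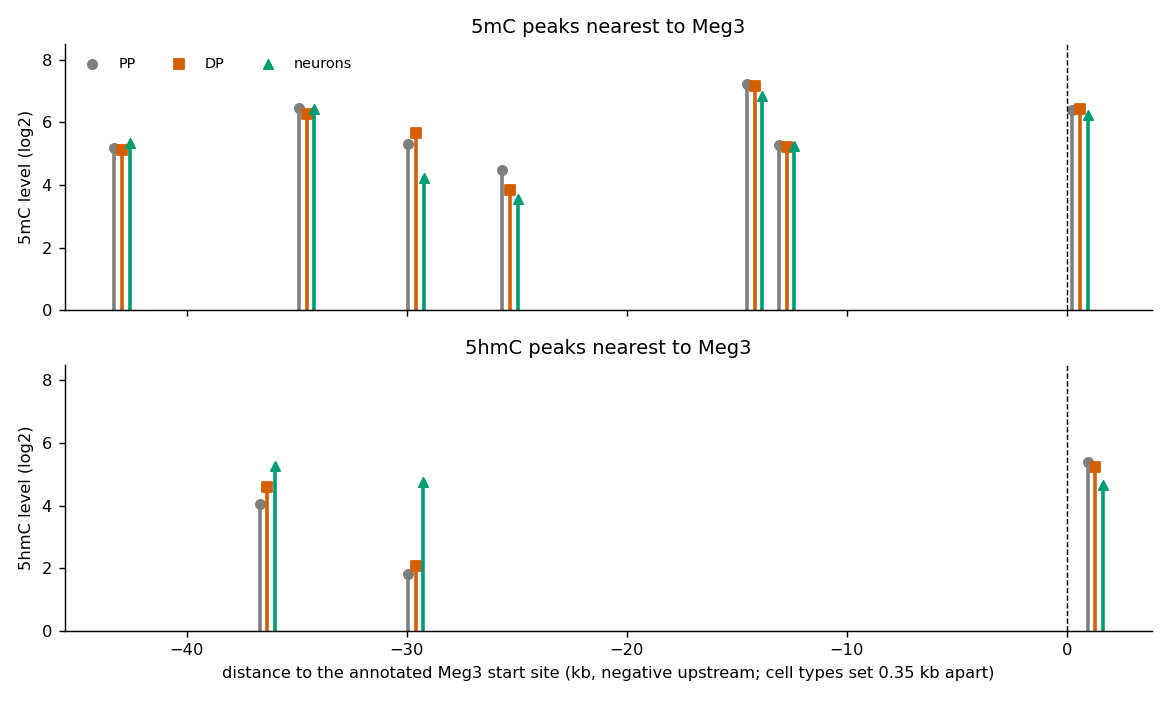
Log2 levels of the 7 5mC (top) and 3 5hmC (bottom) peaks nearest to Meg3 by distance to the annotated start site (kb), for PP (grey circles), DP (orange squares), and neurons (green triangles), drawn from 0 and set slightly apart. About 29.6 kb upstream, 5mC is lowest in neurons, at 4.23, and 5hmC highest, at 4.74.

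Expression of the 10 genes was deposited beside the peaks from an earlier RNA-seq study by the authors. The values are 1 per cell type, with no scale named in the tables. Each covers a whole sorted population, so fewer expressing cells and less RNA per cell cannot be told apart. Values are compared only within a gene, since it is not stated whether they are per length.

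Among the genes highest in neurons, Meg3 had 2000 in PP, 5523 in DP, and 33397 in neurons, which is 16.7-fold from PP to neurons. Nnat had 17197, 33641, and 101423, or 5.90-fold, and Snrpn had 1754, 2402, and 7558, or 4.31-fold. Of these, Meg3 and Nnat had 5hmC peaks that were higher in neurons, whereas the 3 Snrpn peaks had their lowest levels there. A further 7 5hmC peaks inside Snrpn were given to another symbol, Gm7367. Most of them were lowest in neurons too, but those at chr7:60283896-60284056 and chr7:60342666-60342820 were lowest in DP. Among the genes highest in PP, Grb10 had 39636, 29579, and 1871, 21.2-fold lower in neurons than in PP. Plagl1 had 35308, 17126, and 4886 (7.23-fold lower), and Peg10 had 7389, 2591, and 1818 (4.06-fold lower). Mest had 10957, 3501, and 2944 (3.72-fold lower). The 5hmC peaks called higher in neurons thus belonged both to genes higher in neurons and to genes lower there, Grb10 and Plagl1. Gnas, with 29982, 24814, and 29427, Igf2r, with 7072, 8602, and 7193, and Peg3, with 11929, 11582, and 16145, varied by less than 1.5-fold. Igf2r had 2 5hmC peaks higher in neurons all the same.

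**Figure D5:**
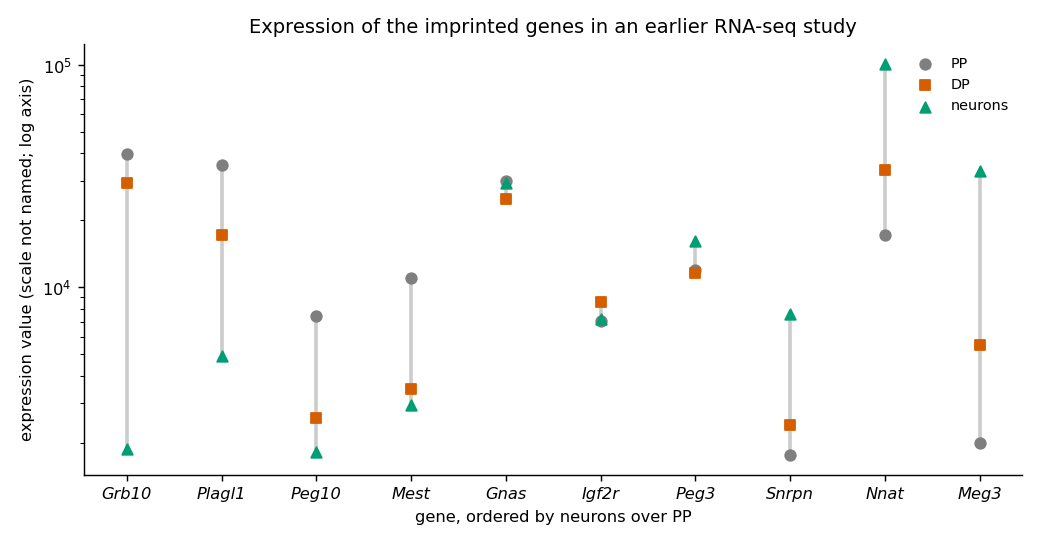
Deposited expression value (log axis, scale not named, 1 value per cell type without error) of the 10 imprinted genes in PP (grey circles), DP (orange squares), and neurons (green triangles), ordered by the ratio of neurons to PP. Grb10 is 21.2-fold lower and Meg3 16.7-fold higher in neurons than in PP.

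Some peaks inside these genes carried another symbol, that of the nearest start site in the authors' annotation, which differs in part from RefSeq. Within the RefSeq bodies of the 10 genes there were 23 such 5mC peaks and 17 such 5hmC peaks. The highest were picked after their values were seen, and several were among the highest 5mC peaks at these loci. In Igf2r, a peak given to Airn, the antisense RNA transcribed from the paternal copy, lay at chr17:12733962-12734084 with 7.52 in PP, 7.40 in DP, and 7.39 in neurons, above 98.8% of all 5mC peaks. In Gnas, 3 peaks given to Nespas, another imprinted antisense RNA, stood above 93.5%, 91.5%, and 97.1%. The highest of them, chr2:174300864-174301002, had 6.92, 7.01, and 7.21. In Peg3, a peak given to Zim1 (chr7:6707803-6707924) had 6.62, 6.58, and 6.20, and in Mest one given to Mir335 (chr6:30737054-30737256) had 6.34, 6.11, and 6.07. Spreads of these named peaks ran from 0.07 to 0.47. Others of the 23 had larger spreads, up to 0.82 at a Mir770 peak in Meg3. Igf2r, which had no 5mC peak by symbol, and Mest, which had a low one, thus held high 5mC peaks by position. For 5hmC, a Zim1 peak in Peg3 (chr7:6706041-6706152) had 3.01, 3.65, and 5.12. It stood above only 8.56% of the mark, and 63.2% of peaks of its level bin had a smaller spread. A region so low in PP may have entered through neurons, which favours a higher neuron level, and this was not tested. In Meg3, 2 Mir770 peaks stood above 95.6% and 95.7% of the mark. Peaks of both marks under such symbols overlapped at 5 places, 2 in Mest, 2 in Meg3, and 1 in Gnas. In Gnas, 5mC was 3.47, 4.24, and 3.78 and 5hmC was 3.09, 3.23, and 5.10 in PP, DP, and neurons. These are low levels, above 3.70% of 5mC and 6.18% of 5hmC peaks, and 60.1% of 5hmC peaks of its level bin had a smaller spread. The limit given for the Zim1 peak applies to this 5hmC peak too. From PP to neurons 5hmC differed by 2.09 at the Gnas place, by 0.55 and 0.50 at the Meg3 places, and by -0.05 and 0.28 at the Mest places. The 5mC differences, in the same order, were 0.48, -0.32, -0.56, -0.09, and 0.12. In PP, DP, and neurons 5mC was 5.00, 5.20, and 4.50 at the first Meg3 place and 5.21, 5.46, and 4.47 at the second. Neurons thus had the lowest 5mC and the highest 5hmC at both Meg3 places. From DP to neurons 5mC differed by -0.52 and -0.81 there, the latter past 1.5-fold.

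A wider list of 70 other imprinted genes was set beside the 10. It was not fully separate from them, since it holds the Airn, Nespas, and Zim1 peaks inside Igf2r, Gnas, and Peg3. Of the 70, 38 genes had 183 5mC peaks and 39 genes had 171 5hmC peaks, and the median ranks were above 57.6% and 54.6% of the marks. Fewer of these peaks were within 5 kb of the annotated start site, 12.0% for 5mC and 9.94% for 5hmC, against 30% and 27.8% for the 10 genes. From PP to neurons 12 5mC peaks were higher (6.56%) and 15 lower (8.20%), and 25 5hmC peaks were higher (14.6%) and 10 lower (5.85%). Their median spread was 0.36 for 5mC and 0.41 for 5hmC. The 5hmC value lay below the 0.70 of the 10 genes, a difference that was not tested.

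The highest 5mC of the wider list was at Trappc9 (chr15:73058172-73058288), with 8.62 in PP, 8.59 in DP, and 8.55 in neurons, above 99.95% of the mark. It was followed by Klf14, Dlk1, Airn, and Rasgrf1, with mean log2 levels of 7.50, 7.46, 7.44, and 7.40. The highest 5hmC was at 2 peaks of H19, a maternally expressed long non-coding RNA, with mean levels of 7.22 and 6.71, and at Begain (6.98), Cobl (6.60), and Tssc4 (6.59). The largest 5mC differences from PP to neurons were -2.60 at Atp10a, -1.71 at Slc38a4, -1.19 at Sgce, -1.05 at Cobl, and -1.03 at Slc22a3 in the one direction. In the other they were 1.44 at Dio3, 1.13 at Slc22a3, 0.98 at Atp10a, and 0.91 and 0.90 at Slc38a4. For 5hmC they were 4.37 at Ppp1r9a, 3.61 at Atp10a, 3.46 at Begain, 2.55 at Slc38a4, and 2.32 at Nap1l5, all from low levels in PP between 0.65 and 2.71. Regions so low in PP may have entered through a peak in another cell type, which favours a difference in this direction. On the lower side they were -1.20 at Pon3, -1.15 at Dio3, -0.98 at Dcn, -0.97 at Trappc9, and -0.77 at Dlk1. Blcap, Calcr, Cd81, Commd1, Copg2as2, Ddc, Ins2, Kcnq1ot1, Mirg, Nctc1, Nesp, Peg13, Peg3os, Phlda2, Rian, Slc22a2, Snurf, Tfpi2, Zdbf2, Zfp264, Zim2, and Zim3 were nearest to no peak of either mark.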

How the data were processed

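The authors sorted PP, DP, and neurons, pooled their barcoded DNA, and sequenced single reads after MeDIP or hMeDIP. Per the labels and the methods, reads were aligned to mm10 with BWA 0.7.8-r455, and peaks were called with SICER 1.1 over input. Peaks found in all replicates of a cell type were merged, those overlapping repeats were removed, and HOMER 4.7 gave the nearest start site. The deposited level columns hold log2 of the mean TMM-normalized reads per peak, averaged over replicates by the authors with DiffBind. The deposited expression score comes from their earlier RNA-seq study, and the deposited distance score is in bp. The tables also hold the authors' own comparisons of both marks and of expression between pairs of cell types, which were not used. The 12 samples carry no replicate numbers. Deposited coordinates were printed as given, and it is not stated whether they count from 0 or 1.

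All peaks were ranked, and differences of log2 levels were centred on the median difference of all peaks of the mark. Peaks were called at 1.5-fold, with no test. Peaks of like level were those of the same of 10 bins of mean level. The members and the gene lists were chosen with earlier results of these data known. All 10 genes were named with every peak, except that for Meg3 5mC the highest, the lowest, and those past 1.5-fold were given in full, with the peak in the gene added after its values were seen. Of the wider list, the 5 highest peaks of each mark and the 5 largest differences in each direction were named. Alternatives were no centring, 2-fold, peaks above the median level, 1 peak per gene, and peaks by position within 5 kb of the RefSeq gene. Ranks were also taken per base of width and by the highest cell type, and overlaps at 50% of the shorter peak or with centres within 500 bp. RefSeq windows of GRCm38.p6 gave the sequences. The steps were tested on simulated data. Python 3.11.15, pandas 2.3.3, numpy 2.4.6, and matplotlib 3.10.9 were used.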

Additional observations from a re-analysis of the deposited data

How the results depend on the processing

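The overlap of both marks stayed at 1 peak under both other overlap rules. With 1 peak per gene, the calls were 0 for 5mC in each of the 3 comparisons, and for 5hmC 1 from PP to DP, 2 from DP to neurons, and 2 from PP to neurons, where all peaks gave 1, 1, 2, 3, 7, and 10. A 2-fold minimum left 0 from PP to DP for both marks, 0 for 5mC and 5 for 5hmC from PP to neurons, and 2 for 5hmC from DP to neurons. Peaks above the median level gave 0 for 5mC and 1 for 5hmC from PP to DP, 1 for both marks from PP to neurons, and 1 for 5hmC from DP to neurons. No share of all peaks was taken at 2-fold, above the median level, or with 1 peak per gene. These counts therefore have no background to be read against. Peaks by position (33 of each mark) gave for 5mC 4 from PP to DP (2 higher), 3 from DP to neurons (2 higher), and 1 from PP to neurons, which was higher where the main 2 were lower, and for 5hmC 5 from PP to DP (4 higher), 9 from DP to neurons (6 higher), and 12 from PP to neurons (8 higher). No centring gave 2 for 5mC from DP to neurons. The median rank of 5mC (57.2) was 85.2 with 1 peak per gene, 55.4 by the highest cell type, 57.6 per base, and 61.6 by position, and that of 5hmC (47.2) was 63.3, 49.5, 56.3, and 44.9. With 1 peak per gene the peak kept was the highest of each gene. The ranks of 85.2 and 63.3 are thus raised by that choice. The median spread of 5mC (0.32) was 0.26 with 1 peak per gene, 0.29 without centring, 0.28 above the median level, and 0.36 by position, and that of 5hmC (0.70) was 0.45, 0.72, 0.39, and 0.51. Except where the settings hold fewer or other peaks, the cause was not tested. No paired analysis was possible because the tables hold 1 mean level per cell type and the samples carry no replicate numbers, and for the same reason no replicate could be left out. Depth is unknown from these tables, and low levels limit the folds, as at Meg3 in PP.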
